A study of Homo sapiens with 6 samples.

Results

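The aldehyde dehydrogenases described here were 10 human genes, ALDH1A1, ALDH1B1, ALDH2, ALDH3A2, ALDH4A1, ALDH6A1, ALDH7A1, ALDH9A1, ALDH16A1 and ALDH18A1. They were taken by gene symbol from the annotation of an Illumina beadchip and made up 10 of the 20046 named genes on it. All 19 probes annotated to the 10 symbols were used, without regard to their signal. The arrays held RNA of Mec-1, a leukaemic human B cell line kept as a model of chronic lymphocytic leukaemia, which carries the surface receptor SLAMF1 (CD150). The control group was Mec-1 transfected with a scrambled short hairpin RNA (shRNA) cassette, on 3 arrays. The other group was a Mec-1 variant transfected with a pGFP-V-RS construct coding for an shRNA against SLAMF1, also on 3 arrays. Both variants were grown in culture in complete medium, and the design text calls the 3 arrays of each a set of biological replicates. Whether these were separate clones or repeat cultures of a single line is not given there. The p-values therefore measure only the spread between these samples, which may be technical. All arrays lay on 1 chip, the controls in the first 3 positions, and chip position and group cannot be told apart.

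Aldehyde dehydrogenases are enzymes that oxidise reactive aldehydes to carboxylic acids, with NAD or NADP as the electron acceptor. Some act on aldehydes from outside the cell or from lipid peroxidation, and others hold a fixed step in a pathway: retinaldehyde to retinoic acid, or the semialdehydes made when valine, lysine and proline are broken down. ALDH1A1 activity is widely used as a marker of haematopoietic stem and progenitor cells, which are sorted on a fluorescent aldehyde substrate.

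The promoters of ALDH1A1 and ALDH6A1 are shown because these genes had the largest upward differences among the members. They are the 250 bases before and 50 bases after the annotated start, from a RefSeq promoter table (GRCh38.p14) in which 8 of the 10 members were matched. ALDH2 and ALDH16A1 were not matched in that table. The ALDH1A1 promoter lies at chr9:72953004-72953303 on the minus strand, and the ALDH6A1 promoter at chr14:74084404-74084703 on the minus strand. Capitals mark CCAAT, its complement ATTGG, the octamer ATGCAAAT and the GC box GGGCGG, and the sequences read 5′ to 3′ along the gene.
ALDH1A1: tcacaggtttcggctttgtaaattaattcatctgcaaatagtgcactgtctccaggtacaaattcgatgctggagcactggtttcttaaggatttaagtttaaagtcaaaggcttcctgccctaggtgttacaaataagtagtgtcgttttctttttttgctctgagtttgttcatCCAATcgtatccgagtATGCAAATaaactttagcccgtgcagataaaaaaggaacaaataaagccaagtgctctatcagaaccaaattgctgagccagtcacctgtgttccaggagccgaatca
ALDH6A1: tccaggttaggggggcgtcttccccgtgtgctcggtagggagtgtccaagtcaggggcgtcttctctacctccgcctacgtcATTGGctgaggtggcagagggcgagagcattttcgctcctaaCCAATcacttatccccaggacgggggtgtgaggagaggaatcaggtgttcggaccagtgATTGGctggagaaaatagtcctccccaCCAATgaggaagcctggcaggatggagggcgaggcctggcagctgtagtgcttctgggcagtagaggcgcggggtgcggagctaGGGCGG

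In ALDH1A1 the CCAAT match began 74 bases and the octamer 58 bases before the start. The octamer is the letters bound by the POU factors OCT1 and OCT2, and this motif was added to the search after the ALDH1A1 sequence had been read. Searched on both strands of all 35116 RefSeq promoters of this length, ATGCAAAT was present in 1.77%, and ALDH1A1 was the 1 holder among the members' 10 promoter entries. The ALDH6A1 promoter held CCAAT 4 times over both strands, at 168, 126, 67 and 40 bases before the start. At least 4 matches were present in 348 promoters, or 0.991%. CCAAT in any number was present in 34.6% of all promoters and in 5 of the 10 member entries, and GGGCGG in 45% and in 6. The TATA box TATAAA was present in 11.5% of all promoters and in 0 of the 10 entries. The nuclear receptor half-site AGGTCA was present in 13.8% and in 1 entry, of ALDH4A1, with no match in that of ALDH1A1. No 2 matches in these promoters overlapped. These matches describe the letters, and binding was not measured.

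Levels are given on a log2 scale after background correction and quantile normalization, and a difference is the SLAMF1 shRNA mean minus the control mean. A gene was tested if a probe of it was detected on at least 3 of the 6 arrays, which 10832 genes met, and was called if its limma adjusted p, over all genes tested, was under 0.05. The arrays detected 36.3% to 41.4% of their probes. The lowest share was on SLAMF1 shRNA replicate 2, which stood apart. It correlated with the other 2 arrays of its label at 0.928 and 0.942, and those 2 correlated with each other at 0.994. Results that rest on it are therefore given also without it. The 1 probe of SLAMF1, the targeted gene, was not lower in the arrays labelled SLAMF1 shRNA. Its levels were 8.26, 8.38 and 8.01 on the controls and 8.70, 8.44 and 8.64 on the arrays labelled SLAMF1 shRNA. The difference was 0.38 (95% interval -0.03 to 0.79, limma adjusted p = 0.153), and it was 0.46 (adjusted p = 0.0489) without replicate 2. With median centring in place of quantile normalization the difference was 0.10 (adjusted p = 0.831). The 1 probe thus showed no fall to match the label, and every direction below is that of the arrays so labelled. The B cell genes CD79A, CD79B, CD22 and MS4A1 were detected on all 6 arrays and PAX5 on 1. CD79A, CD79B and CD22 rose in the SLAMF1 shRNA arrays and MS4A1 fell. The T cell genes CD3D and CD3E were detected on 0 arrays, CD3G on 1 and CD2 on 5. Of the 6 monocyte genes, LYZ was detected on 5 arrays, CSF1R on 3 and the others on 1 or 2. CSF1R was detected on the 3 SLAMF1 shRNA arrays alone, where it was at least 1.53-fold higher than the lowest detected control signal. It met the filter through that group, and its part in the results was not tested.

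Of the 10 aldehyde dehydrogenases, 8 were tested. ALDH1A1, ALDH6A1 and ALDH16A1 rose in the SLAMF1 shRNA arrays and ALDH3A2 fell. That is 4 of 8, beside 24.6% of all genes tested, with 3 higher beside 12.9% and 1 lower beside 11.7%. The members were chosen with earlier results of these data known, so these counts only describe them and are no result about the family. Of the 9 other family genes on the array 2 were tested and 0 were called. The median difference of the 8 tested members was -0.05, and that of all genes tested was 0.02. Without SLAMF1 shRNA replicate 2, 3 members were called higher and 3 lower, beside 19.4% and 17.4% of all genes and 36.9% in either direction. The members added there were ALDH1B1 and ALDH18A1, both lower. The count of lower members was 0 without control replicate 2, control replicate 3, SLAMF1 shRNA replicate 1 or SLAMF1 shRNA replicate 3, and 2 without control replicate 1. The count of higher members was 2 without control replicate 1 and 3 without any other single array. In 6 of the 8 the 3 arrays of one group did not overlap the 3 of the other, beside 45.7% of all genes. Of these, 3 were higher, beside 23.7%, and 3 lower, beside 22%.

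**Figure D1:**
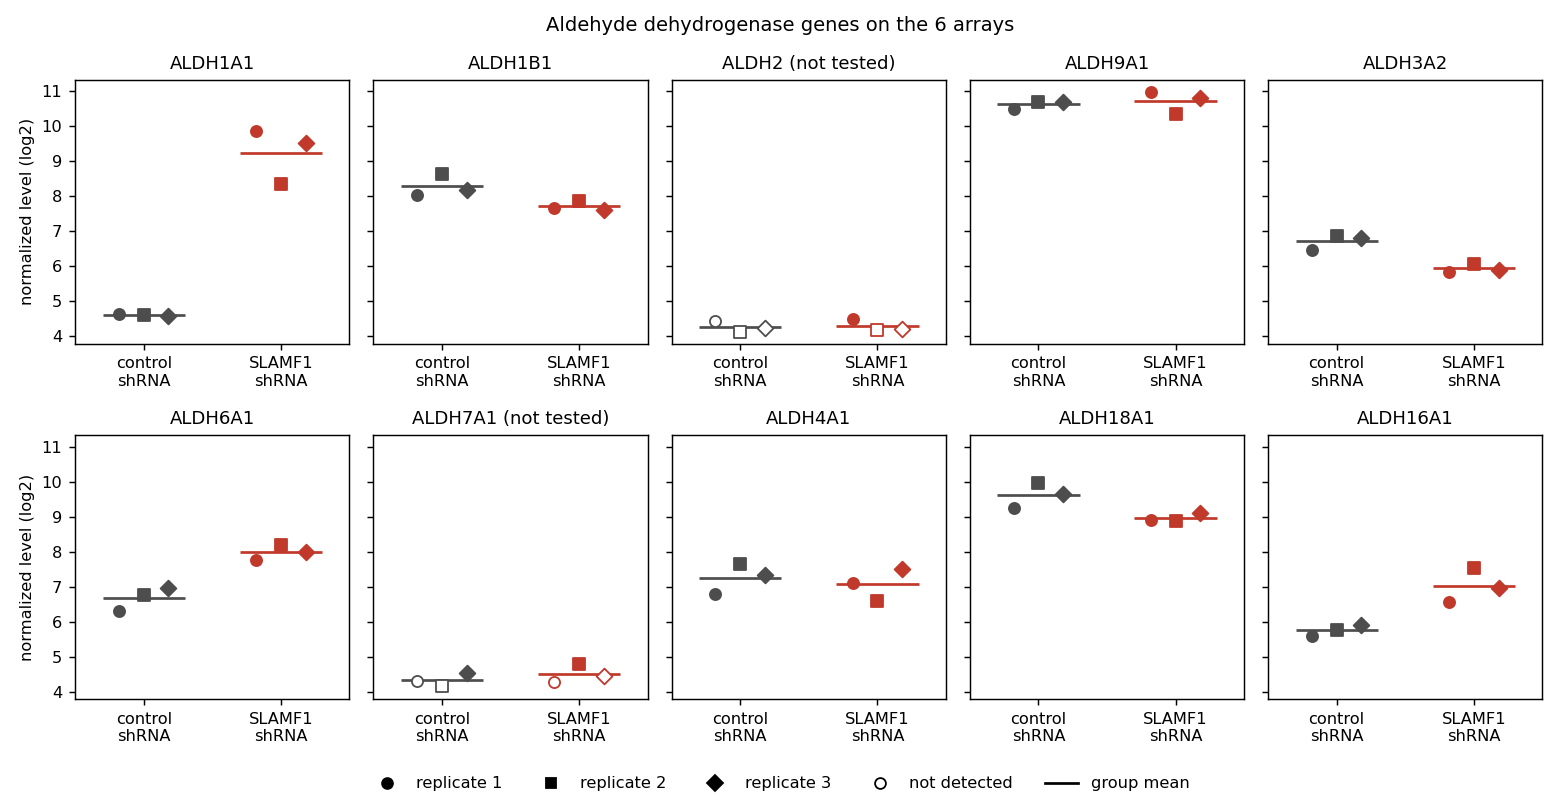
Normalized log2 level of the 10 aldehyde dehydrogenases on each of the 6 arrays, 1 panel per gene, with the 3 controls on the left, the 3 arrays labelled SLAMF1 shRNA on the right, horizontal lines at the group means, and open points where the probe was not detected. Levels are not comparable between panels, the ALDH7A1 panel shows the brighter of its 2 probes, and the ALDH1A1 points run from 4.57 to 4.64 on the controls and from 8.35 to 9.86 on the other arrays.

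ALDH1A1, the cytosolic enzyme that turns retinaldehyde into retinoic acid, had the largest difference of the members. Its tested probe (ILMN_1709348) read 4.64, 4.61 and 4.57 on the controls and 9.86, 8.35 and 9.51 on the SLAMF1 shRNA arrays. The groups lay far apart, the controls at the edge of detection, with detection p-values from 0.0182 to 0.0234, and replicate 2 lowest among the 3 high arrays. The mean rose from 4.61 ± 0.04 to 9.24 ± 0.79 (SD, n = 3 each), a difference of 4.63 (SE 0.36, limma adjusted p = 0.000125), or 24.8-fold. It ranked 8th from the highest of the 10832 genes. Without replicate 2 it was 5.08.

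As deposited, before any correction, the same probe had signal intensities of 100.4, 91.6 and 91.4 on the controls and 1041.9, 284.0 and 778.3 on the others. With no background correction the difference was 2.87 (adjusted p = 0.00309), and from the authors' normalized table it was 2.89. The size of the difference thus depended on the background correction, and the direction did not.

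The other ALDH1A1 probe (ILMN_2096372), annotated to the same transcript, read 4.16, 4.15 and 4.13 on the controls, where it was not detected, and 9.18, 9.36 and 9.07 on the SLAMF1 shRNA arrays. On this corrected scale its level there was at least 26.4-fold higher than the lowest detected signal of the controls. The probe met the detection filter through the SLAMF1 shRNA arrays alone, so its call in a fit of single probes adds no support. Its deposited intensities were 85.0, 79.7 and 77.5 on the controls and 693.6, 533.5 and 596.9 on the others. On this probe replicate 2 was the highest of the 3 and not the lowest. In the fit of single probes, 18.7% of the 19073 probes tested were called, 9.24% higher and 9.42% lower.

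ALDH1B1 and ALDH2 are mitochondrial enzymes that oxidise acetaldehyde, ALDH2 being the main one in alcohol metabolism. ALDH1B1 read 8.04, 8.63 and 8.18 on the controls and 7.66, 7.87 and 7.60 on the SLAMF1 shRNA arrays. All 3 of the latter lay below all controls, with a difference of -0.57 (SE 0.20, 95% interval -1.04 to -0.10) that did not pass the test (adjusted p = 0.0763). Without replicate 2 it was -0.65 (adjusted p = 0.0178). The other probe had a difference of -0.62 and did not overlap between the groups either (adjusted p = 0.0563 among single probes).

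The 1 probe of ALDH2 read 4.45, 4.14 and 4.24 on the controls and 4.49, 4.20 and 4.22 on the others. It was detected on 1 array, SLAMF1 shRNA replicate 1, with a detection p-value of 0.0442, and was not tested. At this signal over background no level of ALDH2 could be compared.

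ALDH3A2 oxidises long-chain fatty aldehydes, including those from sphingolipid breakdown, and its loss causes Sjögren-Larsson syndrome. Its tested probe read 6.45, 6.86 and 6.81 on the controls and 5.84, 6.08 and 5.91 on the SLAMF1 shRNA arrays. The groups did not overlap, and the level fell by 0.77 on the log2 scale (SE 0.18, adjusted p = 0.0188). ALDH3A2 was not called when control replicate 2 (-0.69, adjusted p = 0.0792), control replicate 3 (-0.71, 0.0884), SLAMF1 shRNA replicate 1 (-0.72, 0.0535) or SLAMF1 shRNA replicate 3 (-0.75, 0.0683) was left out. Without SLAMF1 shRNA replicate 2 the difference was -0.83 (adjusted p = 0.00249). With no background correction it was -0.42 (adjusted p = 0.0250). The other probes, both annotated to another transcript of the gene, had differences of -0.59 and -0.54, and on each the groups did not overlap. Neither passed the test among single probes (adjusted p = 0.0620 and 0.101).

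ALDH6A1, the mitochondrial methylmalonate semialdehyde dehydrogenase of valine breakdown, rose. It read 6.31, 6.75 and 6.98 on the controls and 7.76, 8.20 and 7.98 on the SLAMF1 shRNA arrays. The lowest of the latter lay above the highest control, and the difference was 1.30 (SE 0.22, adjusted p = 0.00492), or 2.46-fold. The other ALDH6A1 probe, on the same transcript, read 5.43, 5.49 and 5.88 on the controls and 6.37, 7.63 and 6.68 on the others, a difference of 1.29 (adjusted p = 0.0310 among single probes). Its level on replicate 2 exceeded the mean of the other 2 arrays by 1.10. The gene was called under each of the 18 alternative settings and left-out arrays tried, with differences of 0.90 to 1.45.

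ALDH7A1 (antiquitin) oxidises the semialdehyde of lysine breakdown. One of its 2 probes read 4.18, 4.17 and 4.16 on the controls, where it was not detected, and 4.46, 4.68 and 4.81 on the others, of which replicates 2 and 3 were detected. The other probe was detected on control replicate 3 and SLAMF1 shRNA replicate 2 alone, with levels of 4.17 to 4.79. Neither probe met the filter, so the gene was not tested.

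ALDH4A1 and ALDH18A1 act on the same intermediate, pyrroline-5-carboxylate. ALDH4A1 oxidises it to glutamate in the last step of proline breakdown, and ALDH18A1 makes it from glutamate at the start of proline synthesis. ALDH18A1 read 9.24, 9.95 and 9.65 on the controls and 8.91, 8.88 and 9.09 on the SLAMF1 shRNA arrays. The groups did not overlap, and the difference of -0.65 (SE 0.21, 95% interval -1.14 to -0.16) did not pass the test (adjusted p = 0.0601). Without replicate 2 it was -0.61 (adjusted p = 0.0342).

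ALDH4A1 read 6.79, 7.66 and 7.34 on the controls and 7.10, 6.61 and 7.52 on the others. The groups overlapped, with a difference of -0.19 (SE 0.30, 95% interval -0.88 to 0.51, adjusted p = 0.682) that was 0.05 without replicate 2. Its 3 other probes had differences of 0.41, 0.33 and -0.38, none past the test among single probes (adjusted p = 0.334 to 0.362).

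ALDH9A1 oxidises trimethylaminobutyraldehyde on the route to carnitine. It read 10.48, 10.70 and 10.69 on the controls and 10.98, 10.34 and 10.81 on the SLAMF1 shRNA arrays. The control levels lay within the range of the others, and the difference was 0.08 (SE 0.21, 95% interval -0.40 to 0.56, adjusted p = 0.797). The interval leaves room for a change of either sign, and the value was -0.15 with median centring in place of quantile normalization.

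ALDH16A1, whose mammalian form lacks the catalytic cysteine of the family, rose. It read 5.60, 5.76 and 5.92 on the controls and 6.56, 7.53 and 6.97 on the SLAMF1 shRNA arrays. The groups did not overlap, and replicate 2 was the highest array. The difference was 1.26 (SE 0.26, adjusted p = 0.0107), or 2.39-fold, and 1.0 without replicate 2 (adjusted p = 0.000995). Without control replicate 1 it was 1.17 and the call was lost (adjusted p = 0.0522). With no background correction the difference was 0.70 (adjusted p = 0.0317), so its size depended on that correction.

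**Figure D2:**
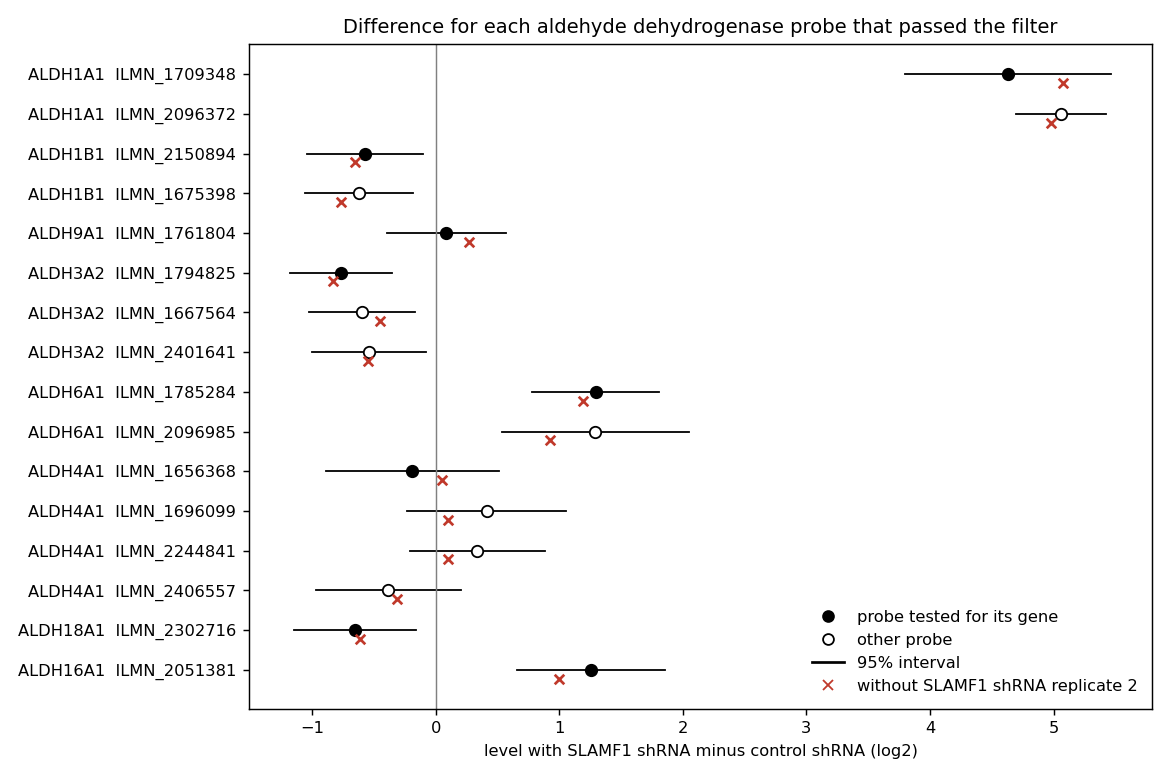
Difference between the SLAMF1 shRNA and control means (log2, horizontal axis) for each of the 16 member probes that passed the detection filter, with unadjusted 95% intervals as bars, filled points for the probe tested for its gene and crosses for the value without SLAMF1 shRNA replicate 2. The tested ALDH1A1 probe lies at 4.63, the other lies to its right at a place set by controls on which it was not detected, the ALDH6A1 probes at 1.30 and 1.29, the 3 ALDH3A2 probes between -0.77 and -0.54, and the 4 ALDH4A1 probes on both sides of 0.

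Of the 19 member probes 16 passed the filter, and probes of 1 gene did not always move together. For ALDH4A1 the split went with the annotated transcript and also with signal level, and these cannot be told apart. On the 2 probes annotated to NM_170726, SLAMF1 shRNA replicate 2 lay below the mean of replicates 1 and 3, by differences of -0.71 and -0.20. On the 2 annotated to NM_003748 it lay above that mean, by 0.95 and 0.71. ALDH5A1, the succinic semialdehyde dehydrogenase of GABA breakdown and no member of the 10, has 2 probes on 1 transcript, and there replicate 2 differed by -1.21 and 0.78. Over the 16 member probes the median absolute gap between replicate 2 and the mean of the other 2 arrays was 0.44, beside 0.18 between replicates 1 and 3. Over all 19073 probes these were 0.43 and 0.14, and the gap of the members was thus close to that of the whole array. Replicate 2 was the higher on 10 and the lower on 6 of the 16. Whether RNA quality or hybridisation had a part in this was not tested.

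**Figure D3:**
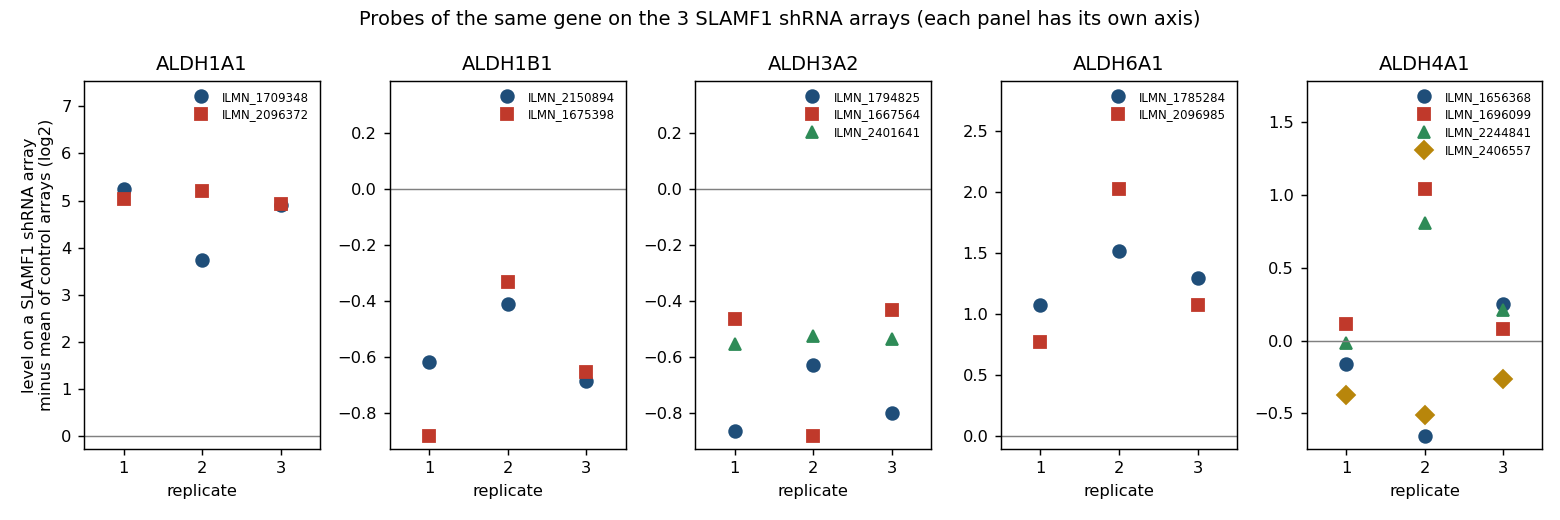
Level on each SLAMF1 shRNA array minus the mean of the controls (log2, vertical axis) for the probes of ALDH1A1, ALDH1B1, ALDH3A2, ALDH6A1 and ALDH4A1, 1 symbol per probe and 1 panel per gene, each with its own axis. On replicate 2 the 2 ALDH1A1 probes part, since that array differs from the mean of replicates 1 and 3 by -1.33 on 1 probe and by 0.23 on the other.

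The other 9 genes of the family on the array were ALDH1A2, ALDH1A3, ALDH1L1, ALDH1L2, ALDH3A1, ALDH3B1, ALDH3B2, ALDH5A1 and ALDH8A1, with 17 probes. ALDH5A1 and ALDH8A1 were tested and neither was called, with differences of -0.03 (adjusted p = 0.957) and -0.03 (adjusted p = 0.908). The probes of the other 7 were detected on 0 or 1 array. ALDH1A2 and ALDH1A3, the other retinaldehyde dehydrogenases, thus did not meet the filter and were not tested. ALDH1A2 was detected on SLAMF1 shRNA replicate 3 alone, by 1 of its 2 probes (detection p-value 0.00649), and ALDH1A3 on 0 arrays.

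The genes acting before and after the members were counted over 6 lists holding 92 genes, of which 57 were tested, 14 were called higher and 6 lower, beside 12.9% and 11.7% of all genes tested. In the retinoid list, which includes genes known to respond to retinoic acid, 16 of 30 genes were tested, 3 rose and 2 fell, with a median of 0.10. That is 31.2% called, beside 24.6% of all genes. Without SLAMF1 shRNA replicate 2 the counts were 4 and 3, beside 36.9% called in all. The 3 that rose were dim on the controls, and under a filter of detection p under 0.01 on every array 10 genes of the list were tested, 0 were called higher and 2 lower. PLAAT4, a phospholipase and acyltransferase known as a retinoic acid response gene, read 4.26, 4.18 and 4.46 on the controls, where it was not detected, and 9.52, 10.85 and 9.94 on the others. On the corrected scale it was at least 49.3-fold higher than the lowest detected control signal, and it met the filter through the SLAMF1 shRNA arrays alone. In the fit with no filter its adjusted p was 0.000617. CD38, an NAD-consuming surface enzyme and another such gene, read 4.43, 4.69 and 4.22 on the controls and 8.08, 8.08 and 8.23 on the others, a difference of 3.68 (SE 0.18, adjusted p = 1.58e-05). DHRS3, which reduces retinaldehyde back to retinol, rose by 2.71 (SE 0.28, adjusted p = 0.000487). CD38 and DHRS3 were each detected on 1 of the 3 controls, so the size of both differences rests on signals near background. Other genes of the list are named here after their values were seen. CYP26C1, RARRES1 and STRA6 were detected on 0 arrays. No probe of CYP26A1 was detected on more than 1 array, and none of CYP26B1 or RARB on more than 2. TGM2 was tested and not called, with a difference of 0.03 (adjusted p = 0.951). NRIP1 was not called either, with a difference of 0.75 (adjusted p = 0.0913), but was called higher without SLAMF1 shRNA replicate 2 (1.06, adjusted p = 0.000525).

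With no background correction the differences were 3.77 for PLAAT4, 1.97 for CD38 and 1.25 for DHRS3. RARA, a retinoic acid receptor, fell by 1.76 (SE 0.17, adjusted p = 0.000338), from levels of 8.62 to 8.89 to levels of 6.84 to 7.10. RDH10, which oxidises retinol to retinaldehyde and is named here after its value was seen, as the other gene that fell, fell by 0.85 (adjusted p = 0.00903). Retinoic acid was not measured.

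**Figure D4:**
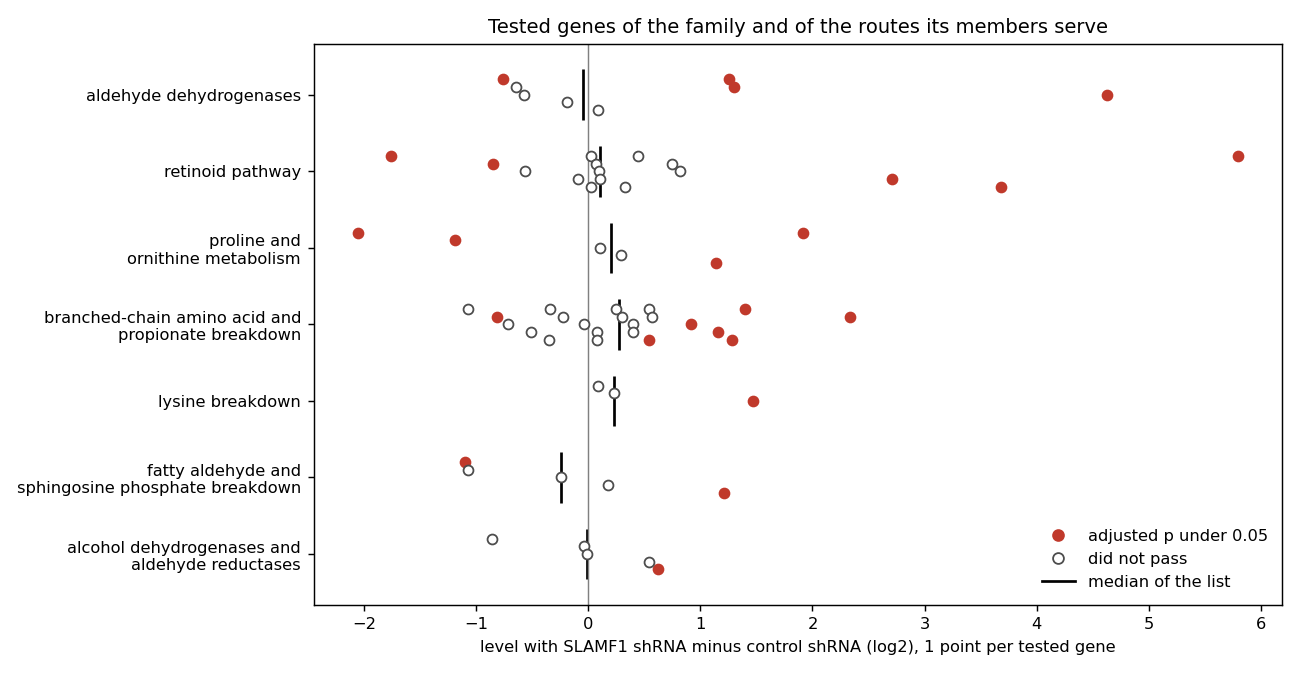
Difference between the SLAMF1 shRNA and control means (log2, horizontal axis) for each tested gene of the family and of the 6 lists of genes acting beside it, 1 row per list, with filled points for genes called by limma and a vertical bar at the median of the list. The retinoid row runs from -1.76 (RARA) to PLAAT4, whose place is set by controls on which it was not detected, and the proline and ornithine row from -2.06 (OAT) to 1.91 (PYCR1).

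Of the 10 proline and ornithine genes, 6 were tested, 2 rose and 2 fell, with a median of 0.20, beside 12.9% higher and 11.7% lower among all genes. OAT, which interconverts ornithine and pyrroline-5-carboxylate, read 8.13, 8.26 and 8.45 on the controls and 6.60, 5.77 and 6.30 on the others, and fell by 2.06 (SE 0.24, adjusted p = 0.000770). PYCR1, which reduces pyrroline-5-carboxylate to proline, read 7.54, 7.60 and 7.66 on the controls and 9.18, 9.99 and 9.36 on the others, and rose by 1.91 (SE 0.23, adjusted p = 0.000953). Its other probes had smaller differences of 0.85 and 1.26, and the mean over its probes rose by 1.34. ODC1, the ornithine decarboxylase of polyamine synthesis, fell by 1.19 (SE 0.22, adjusted p = 0.00665). ARG2, the mitochondrial arginase that makes ornithine, rose by 1.14 (SE 0.19, adjusted p = 0.00492), or by 0.45 with no background correction. The enzymes around pyrroline-5-carboxylate thus moved in both directions, while ALDH4A1 and ALDH18A1 did not pass the test.

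All 22 genes of branched-chain amino acid and propionate breakdown, the route that holds ALDH6A1, were tested, and 6 rose and 1 fell, with a median of 0.27. That is 31.8% called, beside 24.6% of all genes. AUH, a hydratase of leucine breakdown, read 5.48, 5.44 and 5.33 on the controls and 7.88, 7.19 and 8.18 on the others, a difference of 2.34 (SE 0.26, adjusted p = 0.000637) that was 1.36 with no background correction. BCKDHA, a subunit of the branched-chain ketoacid dehydrogenase, rose by 1.28 (SE 0.22, adjusted p = 0.00483). BCAT1, the cytosolic aminotransferase, rose by 1.40 (SE 0.33, adjusted p = 0.0178), and PCCA, a subunit of propionyl-CoA carboxylase, by 1.15 (SE 0.26, adjusted p = 0.0149). HIBCH, which acts before ALDH6A1 on valine and is named after its value was seen, as the gene that fell, had a difference of -0.81 (SE 0.18, adjusted p = 0.0153). HIBADH, of the same list and also named after its value was seen, rose by 0.54 (SE 0.16, adjusted p = 0.0465). With median centring its difference was 0.28 and it was not called (adjusted p = 0.431).

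The count of 6 depended on single arrays, on the normalization and on the probes used. It was 2 without control replicate 1, control replicate 3 or SLAMF1 shRNA replicate 3, and 9 without SLAMF1 shRNA replicate 2, where 19.4% of all genes were called higher. It was 3 with median centring and 5 with the mean of the probes of a gene. DBT, 1 of the 6, is named after its value was seen. Its other probes had differences of -0.13 to 0.11. With the mean of its probes the difference was 0.30 and DBT was not called (adjusted p = 0.218). BCAT1 was not called without any 1 control or without SLAMF1 shRNA replicate 3 (adjusted p = 0.0561 to 0.0760). PCCA was not called without control replicate 1 or 3 or SLAMF1 shRNA replicate 3 (0.0557 to 0.0754). With median centring neither BCAT1 (1.15, adjusted p = 0.0953) nor PCCA (0.88, adjusted p = 0.169) was called. HIBCH was not called without control replicate 1 or 2 (0.0529 and 0.0630).

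The last 3 lists are short, and their counts stand beside 24.6% of all genes called. In lysine breakdown 3 of 4 genes were tested and 1 was called higher. AASS, the first enzyme of the route to the substrate of ALDH7A1, read 4.25, 4.47 and 4.35 on the controls, where it was not detected, and 5.96, 5.50 and 6.02 on the others, at least 2.54-fold higher on the corrected scale. It met the filter through the SLAMF1 shRNA arrays alone. In the fit with no filter its adjusted p was 0.00395, and with no background correction its difference was 0.53. In fatty aldehyde and sphingosine phosphate breakdown, beside ALDH3A2, 5 of 8 genes were tested, 1 rose and 1 fell. PHYH, the peroxisomal hydroxylase of phytanoyl-CoA, rose by 1.21 on its tested probe (SE 0.27, adjusted p = 0.0142), and its other probes had differences of -0.30 to 0.35. It was not called without control replicate 2 or 3 (adjusted p = 0.0573 and 0.0730). SGPP2, a sphingosine phosphate phosphatase, fell by 1.10 (SE 0.28, adjusted p = 0.0237) and was not called without any 1 control (0.050 to 0.0944).

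Among the alcohol dehydrogenases and aldehyde reductases, which turn aldehydes into alcohols, 5 of 18 genes were tested and 1 rose. AKR7A2, an aldehyde reductase, rose by 0.62 (SE 0.16, adjusted p = 0.0254). It was not called without any 1 control or without SLAMF1 shRNA replicate 1 or 3 (0.0552 to 0.0964). With median centring its difference was 0.38 and it was not called (adjusted p = 0.243).

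The genes whose levels over the 6 arrays were most like those of ALDH1A1 were DENND5A (Pearson r = 0.999), EIF4E3 (0.999), CTSV (0.998), CD1D (0.998) and GBP4 (0.998). Each was higher in the SLAMF1 shRNA arrays, by 1.10, 3.55, 1.76, 1.52 and 3.03. Such a correlation is set mostly by the gap between the 2 groups of 3 arrays, and 3.48% of the 10610 genes compared had r above 0.95.

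The nearest tested genes on either side of the 8 tested members in the RefSeq gene order gave 16 neighbours, of which 2 were called, beside 24.6% of all genes. Both are named after their values were seen. RORB, beside ALDH1A1, read 5.90, 6.02 and 6.10 on the controls and 4.19, 4.14 and 4.45 on the SLAMF1 shRNA arrays. The latter lie below the lowest detected signals of those arrays (4.47, 4.59 and 4.47), so RORB met the filter through the controls alone. The size of its fall has only a bound. Its adjusted p was 0.000338, and 0.000707 in the fit with no filter. With no background correction the difference was -0.67. The direction was opposite to that of ALDH1A1. PIH1D1, beside ALDH16A1, rose by 1.25 (adjusted p = 0.0254), but was not called without any 1 control (adjusted p = 0.0807 to 0.0930). The neighbours of ALDH6A1, BBOF1 and LIN52, had differences of 0.04 and -0.11 and were not called.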

How the data were processed

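The deposited signal intensities, 1 per probe and array, were made with GenomeStudio, per the submitters' processing notes, and no background had been subtracted, as their low end shows. Each came with a deposited detection p-value, per the file headers. The authors' other deposited table held intensities, of which 100% lay within 1% of the quantile-normalized signals. Of 47323 probes, 2 had no value, and of the others 30113 had 1 gene symbol, 8 several and 17200 none. For 30074 probes with 1 symbol the gene ID was found in RefSeq (GRCh38.p14). The RefSeq symbol was used for these, whether or not it differed.

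Background was corrected with nec of limma 3.58.1 (R 4.3.3, offset 16), followed by log2 and then quantile normalization. Probes with a detection p under 0.05 on at least 3 arrays were kept (19073, of which 14555 were named), and each of the 10832 genes was tested on its probe of highest mean over all 6 arrays, with lmFit and eBayes and Benjamini-Hochberg adjustment over all genes. A fold against a group with no detected array is a bound: the lowest detected signal of each array, or the probe's own if higher, stands for it. On simulated data with 10832 genes, 37% of 100 genes changed by 1 (log2) and 80% of 100 changed by 2 were recovered. No other genes were changed there, while 24.6% were called in the data. The adjusted p depends on that share, so these recoveries do not carry over directly. The number of arrays limits the precision.

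All members were named, and up to 4 called genes per list in order of size. Members, lists and motifs were chosen with earlier results of these data known. Deviations of equal replicate numbers correlated at -0.20, -0.14 and 0.21, and those of unequal numbers at -0.29 to 0.26. With 3 arrays a group these values cannot decide whether the samples were paired, and the main fit used no pairing. Alternatives varied background correction, normalization, filter, probe rule, variance model and arrays used.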

Additional observations from a re-analysis of the deposited data

How the results depend on the processing

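Among the 8 tested members, the higher calls of ALDH1A1 and ALDH6A1 were kept under every alternative in which they could be tested. A stricter filter, detection p under 0.01 on every array, removed ALDH1A1. The members called lower, 1 in the report, numbered 3 with median centring, 2 with the mean of the probes of a gene, 3 with array weights, and 0 to 3 with single arrays left out. Genes with differences near 0 changed sign, the members ALDH4A1 and ALDH9A1 and the other family genes ALDH5A1 and ALDH8A1. ALDH4A1 was 0.044 with the mean of the probes, 0.0065 with array weights and -0.43 to 0.047 with single arrays left out. ALDH9A1 was -0.15 with median centring and -0.051 to 0.27 with single arrays left out. ALDH5A1 was 0.0060 with no background correction, 0.0066 with cyclic loess, 0.0053 with the authors' normalized table, 0.20 with the mean of the probes, 0.31 with array weights and -0.30 to 0.37 with single arrays left out. ALDH8A1 was 0.021 with array weights and -0.093 to 0.064 with single arrays left out. The cause of these changes was not tested.

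Over all genes tested, 1400 were called higher and 1269 lower. The higher calls numbered 815 with median centring, 2764 with array weights and 675 to 2103 with single arrays left out. The lower calls numbered 830 with the stricter detection filter, which tested 7809 genes in place of 10832, 2625 with array weights and 622 to 1889 with single arrays left out. Median centring moved the share of calls that were higher from 52.5% to 42.5% and the median difference of all genes from 0.02 to -0.14. The companion lists, with 14 higher and 6 lower, had 8 higher with the stricter detection filter (44 genes tested in place of 57), 23 higher and 13 lower with array weights, and 8 to 18 higher with single arrays left out.

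Whether equal replicate numbers mark paired samples is not known. With the replicate number as a block, 1107 genes were called higher and 961 lower, and the members called were again 3 higher and 1 lower, ALDH1A1 with 4.63 (adjusted p = 0.00114). With 3 arrays a group, changes near the spread of a gene were not detectable, and ALDH2 and ALDH7A1 were too dim to test.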
